A study of Homo sapiens with 12 samples.

Results

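The TEAD transcription factors and the vestigial-like (VGLL) cofactors were followed as 7 genes (TEAD1, TEAD2, TEAD3, TEAD4, VGLL1, VGLL3 and VGLL4) among the 60617 genes listed for A549 cells, a human lung adenocarcinoma line. The members were taken by name, and each matched 1 Ensembl identifier in the deposited tables. RNA was sequenced 24 hours after transfection in 3 groups of 4 libraries. They were cells given the first siRNA combination against YAP and TAZ (siYAP/TAZ#1, labelled Y1T2), cells given the second (siYAP/TAZ#2, labelled Y2T3), and cells given a control siRNA (siCo, labelled NTC). The design calls the 4 libraries of a group biological replicates. All groups came from the same line, with no further treatment in the labels, and the siRNA sequences were not used here.

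TEAD proteins bind DNA through their TEA domain and have little activity without a partner. YAP (gene YAP1) and TAZ (gene WWTR1), which the Hippo kinases keep out of the nucleus, are the coactivators that bind TEADs and switch on genes of growth, adhesion and matrix. VGLL proteins bind the same face of the TEADs as YAP and TAZ. VGLL4 is known as a repressor that competes with YAP, while VGLL1 and VGLL3 form TEAD complexes of their own. The comparisons ask whether the RNA of the TEADs and their alternative cofactors changes when YAP and TAZ are depleted, and whether both siRNA combinations change it alike.

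Promoter sequences of 5 of the 7 members (all but TEAD1 and TEAD4) were present in the RefSeq table (build GRCh38.p14) and were searched on both strands for the TEAD motif GGAATG, which reads as CATTCC from the opposite strand, and for the AP-1 motif TGANTCA. The windows were the 250 bases before each annotated start, 10 windows in all. A TEAD motif was held by 1 of these 10 windows, against 11.9% of 35116 windows of all genes, and 0 held an AP-1 motif, against 6.57%. The window with the match belongs to VGLL1, 157 to 152 bases before the start. The stretches below are those of VGLL3 and TEAD2, whose RNA differed between the combinations, of TEAD3, whose mean RNA level was above siCo with both, and of VGLL1, whose RNA was not detected. The RNA of VGLL4 differed between the combinations too, but its windows are not printed. A further TEAD2 window, at chr19:49361518-49361767, is not printed either. Each printed stretch ends before the GENCODE v29 start of the gene, and capitals mark the TEAD motif.

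VGLL3 promoter (chr3:86991150-86991399, minus strand): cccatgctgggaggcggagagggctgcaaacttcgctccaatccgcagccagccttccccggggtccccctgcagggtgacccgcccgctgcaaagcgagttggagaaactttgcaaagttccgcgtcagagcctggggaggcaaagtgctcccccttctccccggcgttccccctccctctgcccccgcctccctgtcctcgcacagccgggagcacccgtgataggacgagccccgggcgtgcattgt

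TEAD2 promoter (chr19:49362458-49362666, minus strand): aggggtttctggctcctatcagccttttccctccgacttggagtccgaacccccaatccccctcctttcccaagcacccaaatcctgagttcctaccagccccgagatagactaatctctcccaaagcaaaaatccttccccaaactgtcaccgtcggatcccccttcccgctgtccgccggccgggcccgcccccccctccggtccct

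TEAD3 promoter (chr6:35497080-35497329, minus strand): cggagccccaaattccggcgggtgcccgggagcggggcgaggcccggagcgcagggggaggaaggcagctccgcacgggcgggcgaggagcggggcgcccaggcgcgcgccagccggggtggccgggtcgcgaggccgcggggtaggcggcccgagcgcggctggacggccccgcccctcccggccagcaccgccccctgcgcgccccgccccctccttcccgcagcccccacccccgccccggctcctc

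VGLL1 promoter (chrX:136531965-136532151, plus strand): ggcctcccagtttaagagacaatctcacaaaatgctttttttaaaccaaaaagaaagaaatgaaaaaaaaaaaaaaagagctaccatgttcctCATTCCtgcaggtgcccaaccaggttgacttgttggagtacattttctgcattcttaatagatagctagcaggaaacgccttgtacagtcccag

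These windows differ widely in base composition. Over the full 250 bases, G and C made up 67.6% of the VGLL3 window, 60.0% of the printed TEAD2 window and 84.0% of the TEAD3 window. They made up 43.6% of the VGLL1 window, against a median of 58.0% over all windows. The TEAD2 window not printed had 67.6%. A missing match says only that these letters are not in the window.

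Library totals ran from 29617111 to 38264296 estimated counts. Both targets were depleted: YAP1 averaged 18.7 ± 1.43 CPM with siYAP/TAZ#1 and 17.4 ± 1.19 CPM with siYAP/TAZ#2, against 121 ± 4.03 CPM in siCo (SD, n = 4 each). WWTR1 averaged 32.9 ± 1.14 CPM with siYAP/TAZ#1 and 32.4 ± 2.38 CPM with siYAP/TAZ#2, against 241 ± 9.71 CPM in siCo. CPM are counts relative to the library total, scaled by TMM factors in edgeR. Epithelial markers (EPCAM, CDH1, KRT7, KRT8, KRT18 and KRT19) and the detoxification genes typical of A549 were expressed. Of these, 6 of 6 and 5 of 5 had a mean over the 12 libraries of at least 1 TPM. EPCAM had 1.47 to 2.45 TPM with siYAP/TAZ#1 and 1.64 to 3.29 TPM with siYAP/TAZ#2, against 0.85 to 1.20 TPM in siCo. KRT7 alone of the 6 epithelial markers went the other way. It had 1217 to 1702 TPM with siYAP/TAZ#1 and 1076 to 1518 TPM with siYAP/TAZ#2, against 1430 to 2028 TPM in siCo. By contrast, 0 of 6 markers of alveolar type 2 cells reached a mean of 1 TPM. Among them NAPSA had 0.83 to 1.44 TPM with siYAP/TAZ#1 and 0.81 to 1.81 TPM with siYAP/TAZ#2, against 0.24 to 0.78 TPM in siCo. Of 5 fibroblast markers only COL1A1 reached a mean of 1 TPM. It had 31.3 to 43.9 TPM with siYAP/TAZ#1 and 22.8 to 37.4 TPM with siYAP/TAZ#2, against 16.2 to 26.2 TPM in siCo. Its part in the results was not tested. Of 4 immune markers only CD68, also a lysosomal gene, reached that mean, and 0 of 4 endothelial markers did. CD68 had 11.8 to 22.6 TPM with siYAP/TAZ#1 and 12.7 to 23.3 TPM with siYAP/TAZ#2, against 11.5 to 15.4 TPM in siCo. The TPM of these markers carry no TMM factors, and on log2(TPM + 1) the median change of all genes was 0.19 and 0.24. Replicate 1 of siYAP/TAZ#2 stood apart from its group, with correlations of log2 CPM across genes of 0.979 to 0.984 to the other 3 libraries, which correlated at 0.989 to 0.990 among themselves. Several results that turn on this library are given with and without it.

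On the TPM scale, which accounts for transcript length, VGLL4, TEAD1, TEAD4, TEAD2 and VGLL3 had group means between 14.8 and 52.2 TPM, TEAD3 stayed at a few TPM, and VGLL1 was at 0 in all 12 libraries. With siYAP/TAZ#1 the order of mean levels was VGLL4 (52.2 TPM), TEAD1 (30.8), TEAD4 (30.1), TEAD2 (29.4), VGLL3 (27.3) and TEAD3 (4.09). VGLL4 lay above the range of TEAD1, and TEAD3 below that of VGLL3, while the 4 genes in between overlapped their neighbours. With siYAP/TAZ#2 the order was VGLL4 (41.8 TPM), TEAD1 (35.4), TEAD4 (30.2), TEAD2 (23.05), VGLL3 (14.8) and TEAD3 (4.16), and TEAD3 alone among these was clear of its neighbour. In siCo it was TEAD4 (39.1 TPM), VGLL4 (35.8), TEAD1 (34.03), TEAD2 (22.2), VGLL3 (16.8) and TEAD3 (2.52), where TEAD4, VGLL4 and TEAD1 overlapped and TEAD1 lay clear of TEAD2. The 0 counts of VGLL1 allow up to 3 counts per library, or 0.075 to 0.113 CPM, as counting error only. VGLL1 (ENSG00000102243, chromosome X, 136532152 to 136556807, plus strand) did not pass the filter on low counts, so 6 of 7 members were tested.

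**Figure D1:**
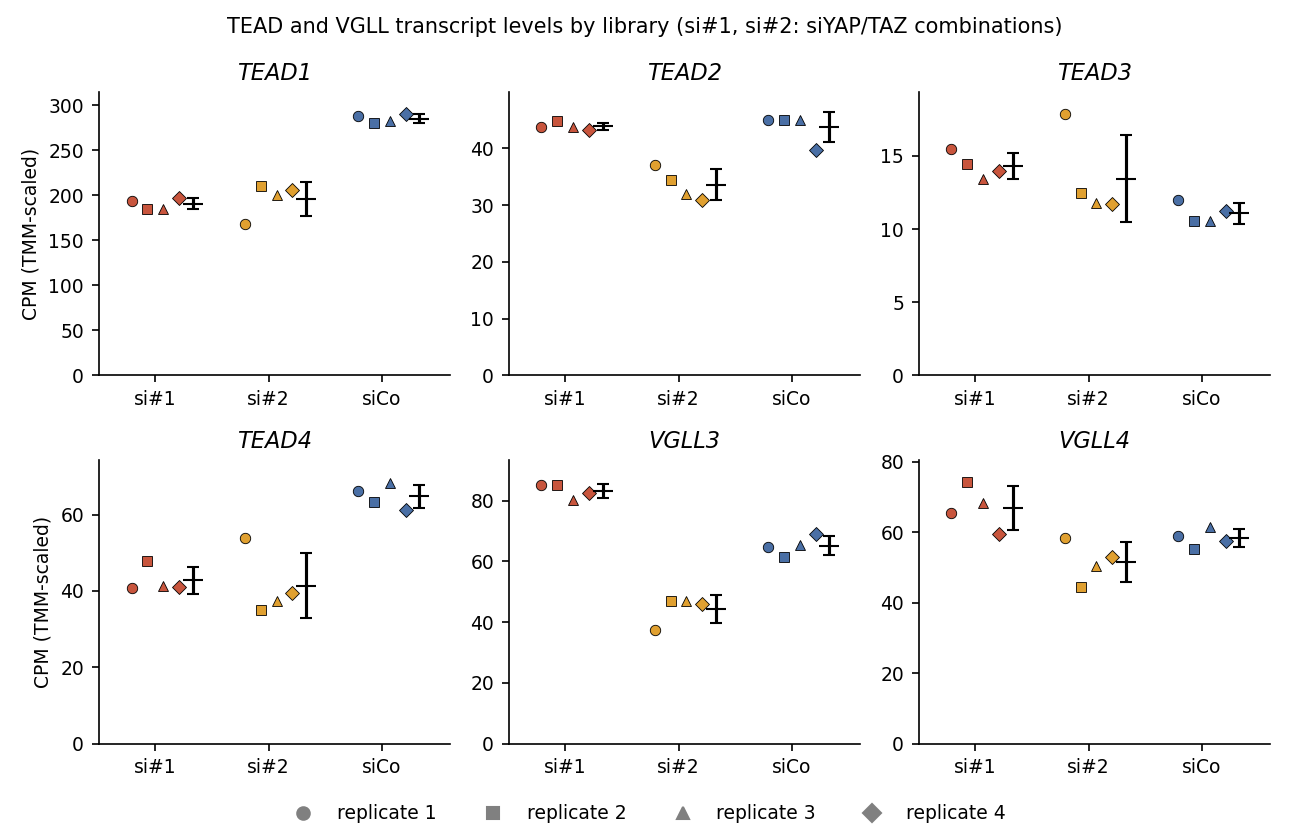
Transcript levels of the 6 detected members in CPM (y axis) in each library with siYAP/TAZ#1 (si#1), siYAP/TAZ#2 (si#2) and siCo, with a marker shape for each replicate number and the mean ± SD of 4 libraries as a black bar. TEAD1 and TEAD4 sit lower in both treated groups, and VGLL3 lies above siCo with siYAP/TAZ#1 and below it with siYAP/TAZ#2.

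Among the factors themselves, TEAD1 and TEAD4 fell with both combinations, TEAD2 fell with siYAP/TAZ#2, and TEAD3 rose with siYAP/TAZ#1. TEAD1 (ENSG00000187079, chromosome 11, 12674591 to 12944483, plus strand, GENCODE v29 on GRCh38), the widely expressed founding member of the family, had 194, 185, 185 and 197 CPM with siYAP/TAZ#1. It had 168, 210.3, 201 and 205 CPM with siYAP/TAZ#2, against 288, 280.1, 282 and 291 CPM in siCo. Every treated library was lower than any siCo library, and the lowest was replicate 1 of siYAP/TAZ#2. The log2 change was -0.58 ± 0.065 (SE) with siYAP/TAZ#1 (adjusted p = 3.34e-06, edgeR quasi-likelihood test) and -0.54 ± 0.065 with siYAP/TAZ#2 (adjusted p = 6.11e-06), which left 0.668 and 0.687 times the siCo level. On log2(TPM + 1) with no TMM factors the same changes were -0.15 and 0.03.

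TEAD4 (ENSG00000197905, chromosome 12, 2959330 to 3040673, plus strand), a TEAD known for its part in trophectoderm and in several cancers, fell by a similar factor. It had 40.7, 48.0, 41.3 and 40.9 CPM with siYAP/TAZ#1 and 53.7, 35.1, 37.3 and 39.5 CPM with siYAP/TAZ#2, against 66.1, 63.4, 68.3 and 61.2 CPM in siCo. No treated library reached the siCo range, and the highest treated value was again replicate 1 of siYAP/TAZ#2. The log2 change was -0.60 ± 0.11 with siYAP/TAZ#1 (adjusted p = 3.24e-04) and -0.64 ± 0.11 with siYAP/TAZ#2 (adjusted p = 1.47e-04). Without replicate 1 of siYAP/TAZ#2 the second change was -0.79. On log2(TPM + 1) with no TMM factors neither change passed, at -0.37 (adjusted p = 0.21) and -0.36 (adjusted p = 0.17).

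TEAD2 (ENSG00000074219, chromosome 19, 49340595 to 49362457, minus strand), best known from the early embryo and neural tissue, split the combinations. It had 43.8, 44.8, 43.8 and 43.3 CPM with siYAP/TAZ#1 and 37.1, 34.5, 31.9 and 30.9 CPM with siYAP/TAZ#2, against 45.0, 45.1, 45.0 and 39.7 CPM in siCo. The siYAP/TAZ#1 libraries fell inside the siCo range, and every siYAP/TAZ#2 library lay below both other groups. The log2 change was 0.01 ± 0.066 with siYAP/TAZ#1 (adjusted p = 0.94, 95% interval -0.13 to 0.15) and -0.38 ± 0.067 with siYAP/TAZ#2 (adjusted p = 2.71e-04). On log2(TPM + 1) the siYAP/TAZ#2 change was 0.04, and with library size alone the siYAP/TAZ#1 change was 0.18 (adjusted p = 0.031). Exons of TEAD2 overlap those of CD37 on the opposite strand, which held at most 35.2 estimated counts in any library.

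TEAD3 (ENSG00000007866, chromosome 6, 35473597 to 35497076, minus strand), a TEAD first described in placenta, was the lowest of the 4 in all groups. It had 15.5, 14.4, 13.4 and 14 CPM with siYAP/TAZ#1 and 17.9, 12.5, 11.8 and 11.7 CPM with siYAP/TAZ#2, against 12.02, 10.5, 10.5 and 11.2 CPM in siCo. The siYAP/TAZ#1 libraries were all above siCo, while 2 of the 4 siYAP/TAZ#2 libraries fell within the siCo range. The log2 change was 0.37 ± 0.12 with siYAP/TAZ#1 (adjusted p = 0.024), and 0.28 ± 0.12 with siYAP/TAZ#2, where it did not pass (adjusted p = 0.081). The first call was near the threshold, with an adjusted p of 0.051 to 0.076 when replicate 1 or 2 of siYAP/TAZ#1, or replicate 2 or 3 of siCo, was left out. On TMM-scaled log2(TPM + 1) it was 0.27 (adjusted p = 0.11). Without replicate 1 of siYAP/TAZ#2 the second change was 0.12 (adjusted p = 0.25). It passed with library size alone (0.45, adjusted p = 0.0031), with no filter (0.29, adjusted p = 0.045) and on log2(TPM + 0.1) (0.71, adjusted p = 0.048).

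Among the cofactors, VGLL3 moved in opposite directions with the combinations, and VGLL4 differed between the combinations, while its calls against siCo depended on the settings. VGLL3 (ENSG00000206538, chromosome 3, 86876388 to 86991119, minus strand), which pairs with TEADs in muscle and mesenchymal cells, had 85.1, 85.1, 80.2 and 82.5 CPM with siYAP/TAZ#1. It had 37.5, 46.8, 46.9 and 46.1 CPM with siYAP/TAZ#2, against 64.6, 61.4, 65.5 and 69.1 CPM in siCo. None of the 3 groups overlapped for this gene. It rose by 0.35 ± 0.070 on the log2 scale with siYAP/TAZ#1 (1.28-fold, adjusted p = 7.99e-04) and its change with siYAP/TAZ#2 was -0.56 ± 0.071 (0.680 times siCo, adjusted p = 1.10e-05). Directly compared, siYAP/TAZ#1 stood 0.91 ± 0.071 above siYAP/TAZ#2 on the log2 scale (1.88-fold, adjusted p = 1.20e-07), and 0.83 without replicate 1 of siYAP/TAZ#2. With library size alone the changes against siCo were 0.53 and -0.36. On log2(TPM + 1) with no TMM factors none passed, at 0.64 with siYAP/TAZ#1 (adjusted p = 0.12), -0.20 with siYAP/TAZ#2 (adjusted p = 0.57) and 0.85 between the combinations (adjusted p = 0.21).

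VGLL4 (ENSG00000144560, chromosome 3, 11556070 to 11771350, minus strand) was the member with the smallest shifts against siCo apart from TEAD2 with siYAP/TAZ#1. It had 65.4, 74.4, 68.2 and 59.4 CPM with siYAP/TAZ#1 and 58.4, 44.5, 50.5 and 52.9 CPM with siYAP/TAZ#2, against 59.0, 55.3, 61.4 and 57.5 CPM in siCo. Both treated groups overlapped siCo, one mostly above it and the other mostly below, and they did not overlap each other. The log2 change was 0.20 ± 0.082 with siYAP/TAZ#1 (adjusted p = 0.074) and -0.18 ± 0.082 with siYAP/TAZ#2 (adjusted p = 0.11), and the direct difference was 0.37 ± 0.082 (adjusted p = 0.0042). Without replicate 1 of siYAP/TAZ#2 both comparisons with siCo passed (adjusted p = 0.023 and 0.012), with changes of 0.20 and -0.24. The siYAP/TAZ#1 change also passed with library size alone (0.37, adjusted p = 4.12e-04), with no filter (0.23, adjusted p = 0.035), with only these 2 groups fitted (0.22, adjusted p = 0.0088) and without the libraries numbered 4 (0.28, adjusted p = 0.047). The siYAP/TAZ#2 change passed with GC offsets (-0.20, adjusted p = 0.029), but was 0.0053 with library size alone and 0.21 on log2(TPM + 1). On TMM-scaled log2(TPM + 1) the direct difference was 0.40 (adjusted p = 0.16). Exons of VGLL4 overlap those of the autophagy gene ATG7 on the opposite strand, which held 617 to 1186 estimated counts, and no source used here gives the strandedness.

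**Figure D2:**
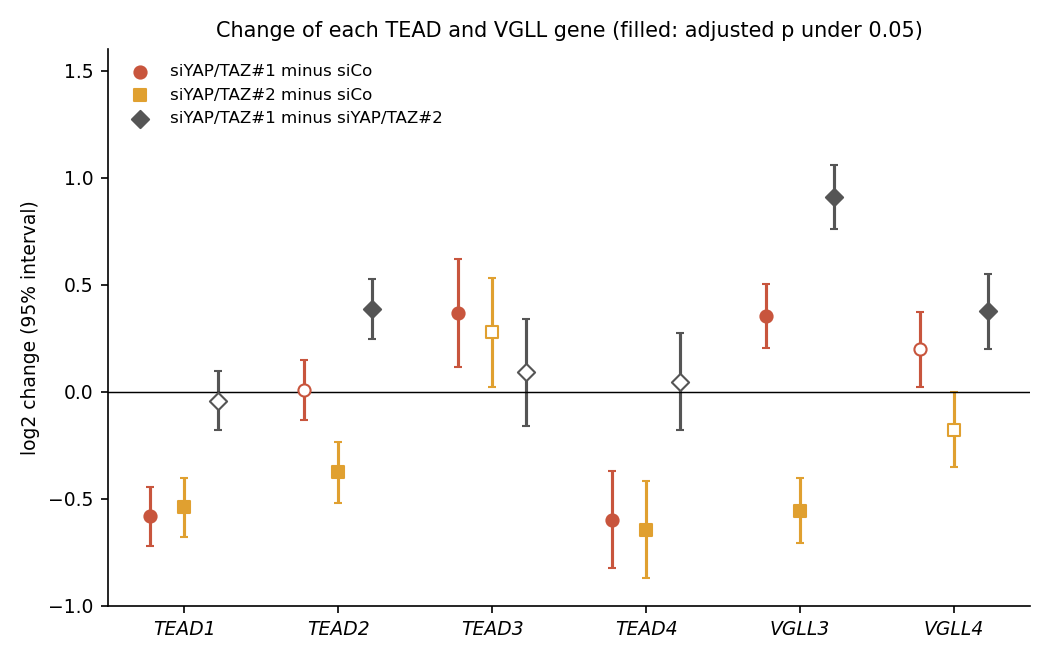
Log2 change (y axis) of each detected member for siYAP/TAZ#1 minus siCo, siYAP/TAZ#2 minus siCo and siYAP/TAZ#1 minus siYAP/TAZ#2, with 95% intervals from the edgeR fit and filled symbols at an adjusted p under 0.05. VGLL3 has called changes of 0.35 and -0.56 against siCo, while TEAD1 and TEAD4 lie between -0.54 and -0.64 with both combinations.

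In all, of the 6 members tested with siYAP/TAZ#1, 2 were lower (18.5% of all 21581 genes tested were) and 2 higher (16.4% of all genes, and 34.9% in either direction). With siYAP/TAZ#2, 4 were lower (19.2% of all genes) and 0 higher by edgeR and by DESeq2 (19.0% of all genes, and 38.2% in either direction), although TEAD3 was higher at an unadjusted edgeR p of 0.034. Library size alone gave 4 members higher with siYAP/TAZ#1 and 1 with siYAP/TAZ#2, and on log2(TPM + 1) without TMM factors 0 members passed in any of the comparisons. Both comparisons use the same siCo libraries. Between the combinations, 3 of 6 members were higher with siYAP/TAZ#1 (6.92% of all genes) and 0 lower by edgeR and by DESeq2, with none lower at an unadjusted p under 0.05 either (8.20% of all genes, and 15.1% in either direction). TEAD1 and TEAD4 differed there by -0.04 (95% interval -0.18 to 0.10) and 0.05 (-0.18 to 0.27), and TEAD3 by 0.09 (-0.16 to 0.34). Without replicate 1 of siYAP/TAZ#2, 5 members were higher with siYAP/TAZ#1, as TEAD3 (0.25, adjusted p = 0.021) and TEAD4 (0.19, adjusted p = 0.038) passed too. For each of the 11 changes called, the exact permutation p of the log2 CPM difference, two-sided, was 0.0286, the smallest that 4 against 4 libraries allow. That value says only that the groups compared did not overlap. The changes had been picked on the same counts, so it is not independent support, and the share of all genes without overlap is not given here.

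The make-up of the TEAD pool was then described as the share of each gene in the summed TPM of TEAD1 to TEAD4, a ratio within a library. TEAD4 made up 32.1% ± 1.13 with siYAP/TAZ#1 and 32.9% ± 4.33 with siYAP/TAZ#2, against 39.9% ± 1.42 in siCo (SD, n = 4 each). The siYAP/TAZ#2 share ranged from 29.9% to 39.4%, and its highest value, in replicate 1, was inside the siCo range of 38.7% to 42.0%. Without replicate 1 the mean siYAP/TAZ#2 share of TEAD4 was 30.8%. TEAD3 held 4.36% ± 0.323 with siYAP/TAZ#1 and 4.54% ± 0.643 with siYAP/TAZ#2, against 2.57% ± 0.184 in siCo, and no treated library reached down to the siCo range. TEAD2 held 30.98% ± 1.30 with siYAP/TAZ#1 and 24.7% ± 1.91 with siYAP/TAZ#2, against 22.6% ± 0.773 in siCo. Of the treated libraries, only replicate 1 of siYAP/TAZ#2 (22.5%) was inside the siCo range of 21.8% to 23.6% for TEAD2. Without it the siYAP/TAZ#2 mean was 25.5%. TEAD1 held 32.6% ± 0.449 with siYAP/TAZ#1 and 37.8% ± 3.47 with siYAP/TAZ#2, against 34.9% ± 1.39 in siCo. Its siYAP/TAZ#2 share was 32.6% in replicate 1, below the siCo range of 32.9% to 36.2%. The other siYAP/TAZ#2 libraries had 38.8% to 40.0%, and the mean without replicate 1 was 39.5%. Estimated counts are not per length. As a share of them, TEAD1 made up 65.4% with siYAP/TAZ#1 and 68.8% ± 5.42 with siYAP/TAZ#2, against 70.5% ± 1.16 in siCo. That siYAP/TAZ#2 mean lay below siCo by less than its spread. Replicate 1 had the fewest TEAD1 counts of its group (5324) and the most TEAD4 counts (1702). Count shares without it are not given here.

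**Figure D3:**
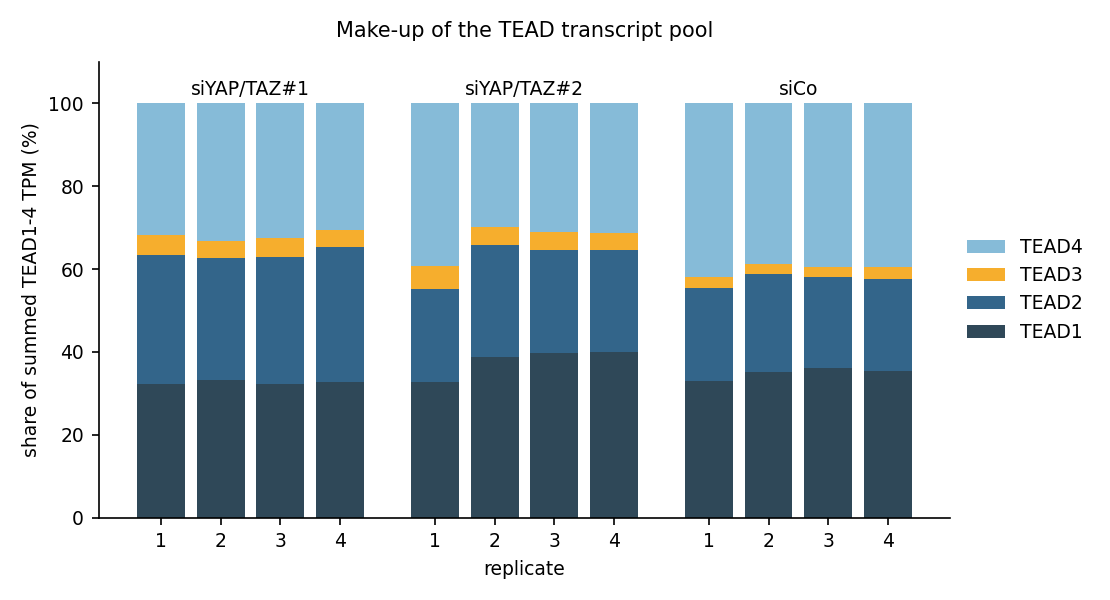
Share of TEAD1, TEAD2, TEAD3 and TEAD4 in their summed TPM (y axis, percent) in each library, grouped as siYAP/TAZ#1, siYAP/TAZ#2 and siCo. TEAD4 has a mean share of 32.1% with siYAP/TAZ#1 and 32.9% with siYAP/TAZ#2, against 39.9% in siCo, and replicate 1 of siYAP/TAZ#2 departs from its group at 39.4%.

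Levels of TEAD and VGLL transcripts were also set against those of YAP1 and WWTR1, which the siRNAs target, so these ratios are a description. Summed TEAD TPM averaged 94.3 with siYAP/TAZ#1 and 92.8 with siYAP/TAZ#2, against 97.8 in siCo. YAP1 and WWTR1 together averaged 28.3 TPM with siYAP/TAZ#1 and 24.2 TPM with siYAP/TAZ#2, against 108 TPM in siCo. These TPM carry no TMM factors, and on log2(TPM + 1) the median change of all genes was 0.19 and 0.24. In TMM-scaled CPM, TEAD1 to TEAD4 stood at 0.668, 1.01, 1.29 and 0.660 times siCo with siYAP/TAZ#1. With siYAP/TAZ#2 they stood at 0.687, 0.770, 1.21 and 0.640 times. YAP1 stood at 0.155 and 0.143 times, and WWTR1 at 0.137 and 0.135 times. Factors per library cancel in the ratios. Summed TEAD TPM stood at 3.33 ± 0.202 times the summed TPM of YAP1 and WWTR1 with siYAP/TAZ#1 and at 3.90 ± 0.329 times with siYAP/TAZ#2, against 0.9005 ± 0.0514 times in siCo. VGLL4 alone stood at 1.87 ± 0.182 times with siYAP/TAZ#1 and 1.78 ± 0.379 times with siYAP/TAZ#2, against 0.332 ± 0.0408 times in siCo. VGLL3 stood at 0.954 ± 0.133 times with siYAP/TAZ#1 and 0.610 ± 0.0932 times with siYAP/TAZ#2, against 0.154 ± 0.0173 times in siCo. In every treated library these 3 ratios were above all siCo libraries. They describe RNA, and protein was not measured.

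**Figure D4:**
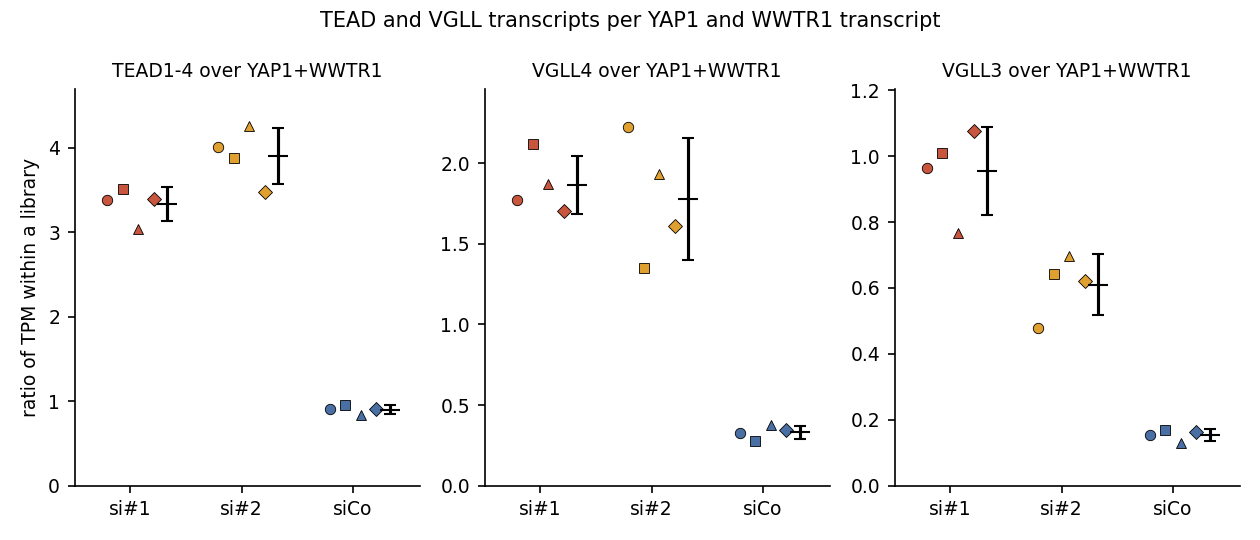
Ratio (y axis) of summed TEAD1 to TEAD4 TPM, of VGLL4 TPM and of VGLL3 TPM to the summed TPM of YAP1 and WWTR1 in each library with siYAP/TAZ#1 (si#1), siYAP/TAZ#2 (si#2) and siCo, with mean ± SD of 4 libraries as a black bar. VGLL4 is at 0.332 times YAP1 plus WWTR1 in siCo and above 1 in every treated library.

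Genes with the most similar profile were sought for TEAD1, TEAD4 and VGLL3, the members called against siCo with both combinations. Likeness was the root mean square distance of log2 CPM, centred on the siCo mean, over all 12 libraries, among 10975 coding genes with a mean of at least 5 CPM. Nearest to TEAD1 were GFPT1, the entry enzyme of hexosamine synthesis, the nucleolar GTPase gene GNL3L, and NAA25, a subunit of an N-terminal acetyltransferase, at distances of 0.040, 0.042 and 0.046 (median of all candidates 0.433). Nearest to TEAD4 were the pseudokinase gene PRAG1, the nucleolar gene MYBBP1A, and MYH9, a non-muscle myosin heavy chain, at 0.045, 0.055 and 0.061 (median 0.504). Nearest to VGLL3 were MCU, the mitochondrial calcium uniporter, the RNA helicase gene DDX52 and the lysosomal membrane gene LAMP2, at 0.065, 0.080 and 0.084 (median 0.463). MCU, picked for this likeness, changed by 0.39 ± 0.063 with siYAP/TAZ#1 and -0.62 ± 0.064 with siYAP/TAZ#2. Since the genes were chosen on these libraries, their likeness to a member in any one of them, replicate 1 of siYAP/TAZ#2 included, is set by the choice.

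**Figure D5:**
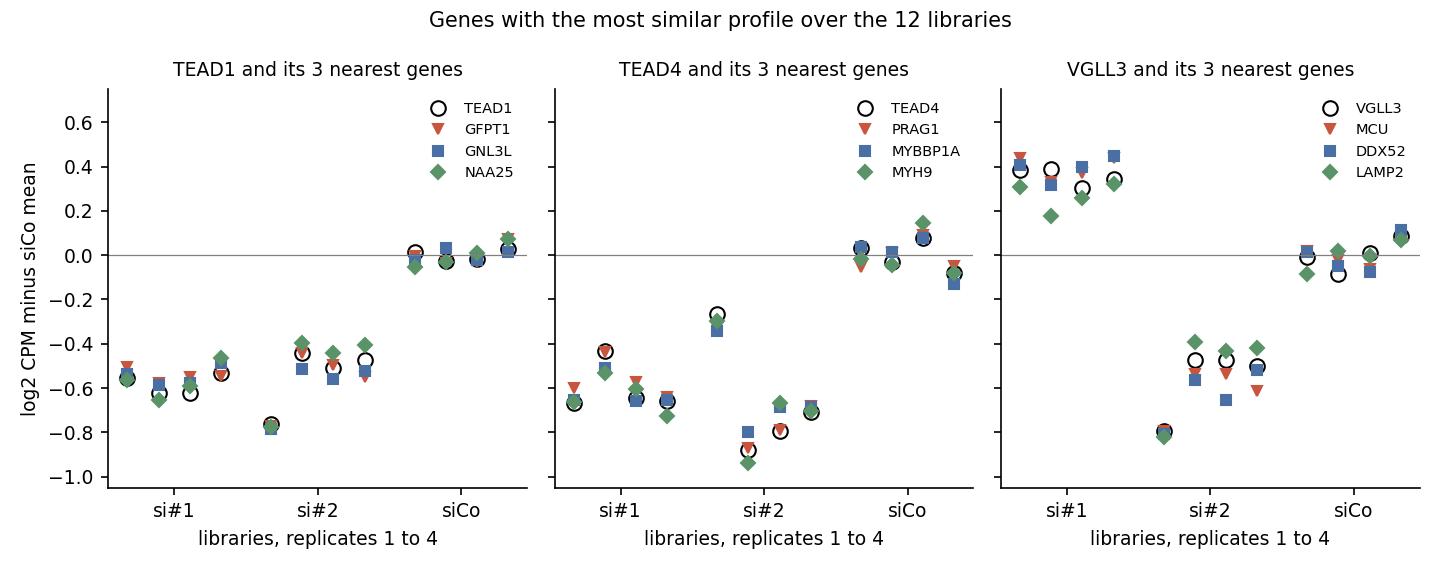
Log2 CPM minus the siCo mean (y axis) of TEAD1, TEAD4 and VGLL3 (open circles) and of the 3 genes nearest to each, in the 12 libraries grouped as siYAP/TAZ#1 (si#1), siYAP/TAZ#2 (si#2) and siCo, replicates 1 to 4 from left to right within a group. The genes were chosen for lying near their member in these libraries, at distances of 0.040 to 0.084.

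Other TEAD partners and regulators were taken from a list of 24 genes, of which 22 passed the filter. With siYAP/TAZ#1, 8 were lower and 2 higher (18.5% and 16.4% of all genes), with a median log2 change of -0.14 (all genes 0.02). With siYAP/TAZ#2, 9 were lower and 2 higher (19.2% and 19.0% of all genes), with a median of -0.16 (all genes 0.02). These counts include the targeted YAP1 and WWTR1, and without them 6 of 20 were lower with siYAP/TAZ#1 and 7 of 20 with siYAP/TAZ#2, with medians of -0.07 and -0.14. With library size alone the counts among the 22 were 5 lower and 4 higher, and 3 lower and 5 higher. Without the libraries numbered 4, 5 and 5 were lower. With GC offsets 12 and 13 were lower, and without replicate 1 of siYAP/TAZ#2 10 and 12 were. Besides YAP1 and WWTR1, 4 genes fell with both combinations, ARID1A with siYAP/TAZ#2 only just (adjusted p = 0.0499). The chromatin remodelling subunits ARID1A (-0.34 ± 0.082 with siYAP/TAZ#1 and -0.21 ± 0.082 with siYAP/TAZ#2) and SMARCA4 (-0.27 ± 0.087 and -0.26 ± 0.087), the corepressor CTBP2 (-0.33 ± 0.053 and -0.19 ± 0.053) and the depalmitoylase LYPLA2 (-0.19 ± 0.055 and -0.19 ± 0.055) were those. The nuclear receptor coactivator NCOA2 (0.22 ± 0.064 and 0.44 ± 0.064) and the calcium-regulated factor NFATC2 (0.95 ± 0.071 and 0.77 ± 0.071) rose with both, and the place of NFATC2 among TEAD partners is less well grounded than that of the others.

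Between the combinations, 2 of these 22 genes were higher and 2 lower with siYAP/TAZ#1, a share near that of all genes (6.92% higher and 8.20% lower). They are named here after their values were seen. TCF7L2, a Wnt effector that can join VGLL4 and TEAD4, averaged 38.9 CPM with siYAP/TAZ#1 and 28.5 CPM with siYAP/TAZ#2, against 38.5 CPM in siCo. Its direct difference was 0.45 ± 0.055 (adjusted p = 2.31e-05). The coactivator NCOA3 was higher by 0.36 ± 0.062 (adjusted p = 6.29e-04). NCOA2 (-0.22 ± 0.063, adjusted p = 0.026) and the p38 kinase gene MAPK14 (-0.23 ± 0.061, adjusted p = 0.015) were lower, and neither passed without the libraries numbered 4.

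The 22 genes of a known YAP/TAZ target signature all passed the filter, and all 22 fell with each combination (18.5% and 19.2% of all genes did). Their median log2 changes were -1.07 and -0.83 (all genes 0.02 and 0.02). On log2(TPM + 1) 9 and 7 of them passed. The signature is defined by dependence on YAP and TAZ, and it was chosen with earlier results of these data known. Its fall thus describes the depletion and is no independent test, and TEAD activity was not measured. CCN1, a secreted matricellular protein, averaged 21.4 ± 0.589 CPM with siYAP/TAZ#1 and 21.1 ± 2.04 CPM with siYAP/TAZ#2, against 160.1 ± 5.80 CPM in siCo. The combinations differed for the growth factor TGFB2, at 27.9 ± 1.56 CPM with siYAP/TAZ#1 and 47.5 ± 2.61 CPM with siYAP/TAZ#2 (difference -0.77 ± 0.061, adjusted p = 1.52e-07), and for the angiomotin AMOTL2, at 78.2 ± 6.18 CPM with siYAP/TAZ#1 and 58.2 ± 10.9 CPM with siYAP/TAZ#2 (0.43 ± 0.10, adjusted p = 0.0081). For ANKRD1, a muscle ankyrin repeat gene, the difference was 0.39 ± 0.16 (adjusted p = 0.13, 95% interval 0.05 to 0.73). Between the combinations, 9 of the 22 were lower and 1 higher with siYAP/TAZ#1 (8.20% and 6.92% of all genes), and 4 were higher without replicate 1 of siYAP/TAZ#2. In bulk RNA, fewer transcripts per cell and fewer cells with the transcript cannot be told apart.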

How the data were processed

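RNA of 12 A549 libraries (3 groups of 4) was isolated 24 hours after transfection, from samples that passed an RNA integrity number of 7, per the labels' protocols. The authors deposited estimated counts per gene, not further scaled, and TPM values, a unit per transcript length. Trim Galore (version 0.6.4), kallisto (version 0.4.6) and the build GRCh38.p13 are listed, without roles, per the submitters' processing notes. Groups came from the titles. Estimated counts were rounded and tested with edgeR 4.0.16 (R 4.3.3): filterByExpr, TMM, group as the only term over all 12 libraries, quasi-likelihood test, Benjamini-Hochberg over the 21581 genes kept, calls at 0.05. The step was checked on simulated data. TPM served for levels between genes, for ratios within a library, and with limma 3.58.1 as an alternative. DESeq2 1.42.0 was another. Members and lists were chosen with earlier results of these data known, and the named genes follow a fixed rule: the 7 members, YAP1 and WWTR1, partners called with both combinations, the 4 targets of lowest p, and 3 nearest profiles. TCF7L2, NCOA3 and MAPK14 fall outside it and were named after their values were seen. Gene positions are from GENCODE v29, and promoter sequences from RefSeq on GRCh38.p14. Totals were 29617111 to 38264296 counts per library, and the precision of each level is given by the spread between the 4 libraries of a group. A protein comparison planned for the members was not made.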

Additional observations from a re-analysis of the deposited data

Results flagged for a closer look

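The effects of the combinations differed for 3 members by the direct test. The effect of siYAP/TAZ#1 exceeded that of siYAP/TAZ#2 by 0.91 for VGLL3, 0.39 for TEAD2 and 0.37 for VGLL4 on the log2 scale (edgeR adjusted p = 1.20e-07, 5.93e-04 and 0.0042).

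Single libraries lay far from the other 3 of their group in 7 of 36 groups checked (8 genes and 4 shares in 3 groups), where chance alone gives about 5% for a single check. The checks are not independent, as the shares reuse genes checked in CPM and all use the same libraries. The count of 7 was thus not tested against that rate. Of the 7, 4 were in replicate 1 of siYAP/TAZ#2: TEAD3 was highest there at 17.9 CPM and VGLL3 lowest at 37.5 CPM, and the shares of TEAD3 and TEAD4 in TEAD TPM were highest at 5.51% and 39.4%. In siCo replicate 4, TEAD2 was lowest at 39.7 CPM and the TEAD3 share highest at 2.84%. In siYAP/TAZ#1 replicate 2, TEAD4 was highest at 48.0 CPM.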

How the results depend on the processing

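Genes of the MIR3648 and MIR663 families took 16.8% to 51.7% of all TPM, lowest in the treated libraries numbered 4, and their part in the TPM results was not tested. Scaling by library size alone shifted the median log2 change over all genes to 0.20 with siYAP/TAZ#1 and 0.21 with siYAP/TAZ#2, and on log2(TPM + 1) to 0.19 and 0.24. Of 198 log2 changes recomputed for the members under other settings, 153 kept direction and side of the threshold. The counts below are given for siYAP/TAZ#1 minus siCo first, siYAP/TAZ#2 minus siCo second and the direct comparison last.

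With library size alone 4 and 1 members were higher, 5 and 3 partners lower, and 4 and 5 partners higher. With no filter 1 member was higher with siYAP/TAZ#2, and 0 partners were lower in the direct comparison, against 1 when only the 2 groups compared were fitted. On log2(TPM + 1) 0 and 0 members were lower and 0 higher with siYAP/TAZ#1, 2 and 2 partners lower, 1 and 4 partners higher, and 9 and 7 targets lower. On log2(TPM + 0.1) the values were 0 and 0 members lower, 0 and 1 higher, 2 and 2 partners lower, 1 and 4 higher, and 10 and 7 targets lower. With either pseudocount the direct comparison called 0 members, 0 partners and 0 targets in either direction. With TMM factors on TPM 1 member was higher with siYAP/TAZ#1, and the direct comparison called 0 partners lower and 0 targets higher. Without the libraries numbered 4, added after seeing the data, 5 and 5 partners were lower, and 0 in the direct comparison. With GC offsets, also added, 4 partners and 3 targets were higher in the direct comparison, and with the replicate block besides, 1 member with siYAP/TAZ#2 and 3 targets in the direct comparison were higher.

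Reversed signs, in changes that were called in the main analysis, were those of TEAD1 (0.031 and 0.031 at pseudocounts of 1 and 0.1) and TEAD2 (0.045 and 0.046) with siYAP/TAZ#2 on TPM. Among uncalled changes, VGLL4 with siYAP/TAZ#2 was 0.0053 with library size alone and 0.21 and 0.21 on TPM. In the direct comparison TEAD3 was -0.025 and -0.032 and TEAD4 -0.012 and -0.012 on TPM, and TEAD2 with siYAP/TAZ#1 was -0.052 and -0.051 with GC offsets without and with the block. Shares of summed counts, not per length, were 65.4%, 68.8% and 70.5% for TEAD1 (siYAP/TAZ#1, siYAP/TAZ#2, siCo), 15.1%, 11.8% and 10.8% for TEAD2, 4.91%, 4.75% and 2.74% for TEAD3, and 14.7%, 14.6% and 16.0% for TEAD4.

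Leaving out 1 library at a time gave 1 to 3 members higher with siYAP/TAZ#1, 0 to 1 with siYAP/TAZ#2 and 3 to 5 in the direct comparison, 1 to 2 partners higher with siYAP/TAZ#1, 0 to 2 lower in the direct comparison, and 1 to 4 targets higher there. The uncalled change of TEAD2 with siYAP/TAZ#1 ran from -0.033 to 0.019, and that of TEAD4 in the direct comparison from -0.027 to 0.19. Same-numbered samples did not deviate together in every pair (r from -0.15 to 0.21). Those numbered 4 did so in all 3 pairs of groups (r of 0.19, 0.15 and 0.21), each correlating best with its own number. With the replicate block 1 member, TEAD3, was higher with siYAP/TAZ#2 (0.27, adjusted p = 0.037).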

Other observations

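The estimated count per TPM of a gene, set against the median gene of its library, follows the mean effective length of its transcripts. For TEAD4 this index was 0.14 ± 0.033 higher on the log2 scale with siYAP/TAZ#1 and 0.15 ± 0.089 higher with siYAP/TAZ#2 than the siCo mean (SD, n = 4 each), where siCo libraries spread by ± 0.090. The siYAP/TAZ#1 libraries (0.10 to 0.17) lay above the siCo libraries (-0.09 to 0.09), and the siYAP/TAZ#2 libraries (0.06 to 0.24) overlapped them. On TMM-scaled log2(TPM + 1) the TEAD4 changes were -0.71 and -0.78. For TEAD1 the index was -0.06 ± 0.11 with siYAP/TAZ#1 and -0.14 ± 0.14 with siYAP/TAZ#2, with siCo libraries spread by ± 0.12, and the ranges overlapped. Which transcripts carry these differences was not tested.

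VGLL3 TPM stood at 0.516 ± 0.0953 times VGLL4 TPM with siYAP/TAZ#1 and 0.359 ± 0.108 times with siYAP/TAZ#2, against 0.475 ± 0.105 times in siCo (SD, n = 4 each), and all 3 ranges overlapped.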
